A study of Rattus norvegicus with 8 samples.

Results

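The genes described here are those of the rat major histocompatibility complex (MHC), whose symbols begin with RT1-, together with the main genes that prepare and load peptides for MHC molecules. All genes with an RT1- symbol were taken, and B2m, Tap1, Tap2, Tapbp, Psmb8, Psmb9, Psmb10, Cd74, Ciita and Nlrc5 were added by name. Each gene was read from the probe set that lists a single symbol and has the highest mean over the arrays. This gave 44 genes of the 14506 genes on the array, 35 of them RT1 genes and 9 of the 10 added by name. Nlrc5, a regulator of class I genes, was not listed with a probe set of its own and was not analysed here. Another 4 probe sets carry several RT1 symbols, one of them shared by the classical class I genes RT1-A1, RT1-A2 and RT1-A3, and were left out.

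RNA from whole liver of female Wistar rats, an outbred strain, was hybridised to 8 arrays in 4 groups of 2. Healthy rats gave livers at 2, 4 and 12 weeks of age. The remaining group is liver regenerating 8 h after partial hepatectomy (PH), an operation that removed the lateral lobes and left the other lobes in place. How old the operated animals were is not stated in the labels, and sham surgery was not analysed here. Operation, age and hour of sampling cannot be told apart between the operated and the other livers. The titles speak of biological replicates and the design text of duplicate processing, so p-values rest on a spread between arrays that may be technical in part.

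MHC class I molecules sit on nearly all nucleated cells and show peptides from inside the cell to CD8 T cells. The peptides are cut by the proteasome, which takes up the interferon-inducible subunits encoded by Psmb8, Psmb9 and Psmb10, are pumped into the endoplasmic reticulum by the Tap1-Tap2 transporter and are loaded with the help of tapasin (Tapbp) onto a class I heavy chain bound to beta-2-microglobulin (B2m). Class II molecules are made mostly by antigen-presenting cells such as dendritic cells, B cells and macrophages, which in the liver include Kupffer cells; they travel with the invariant chain (Cd74) and depend on the coactivator encoded by Ciita. RT1 genes differ between rats of an outbred strain, and many are near-identical copies of each other, so a probe set named for one RT1 gene can take up signal of another, and single RT1 values are uncertain for that reason.

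Values are levels on the log2 scale after robust multi-array averaging (RMA), so a difference of 1 is a 2-fold difference. Levels of different genes cannot be set against each other, since their probes differ. To place the low end of the scale, 1256 genes of receptor families that liver is not known for, such as olfactory receptors, were used, and 95% of them had a mean at or below 5.55. Of the 44 genes, 35 lay above that level and 9 at or below it: RT1-M1-4, RT1-M1-2, RT1-Ha, RT1-M10-1, RT1-O1, RT1-M6-2, RT1-M5, RT1-M6-1 and RT1-DOb. The lowest 3 read between 3.86 and 5.24 (RT1-M1-2), between 3.91 and 5.14 (RT1-M1-4) and between 4.29 and 4.79 (RT1-Ha) on the arrays. The receptor genes themselves had a median of 4.74 on array 1 and 3.91 on array 2 of the 12-week livers, and of 4.64 and 4.17 after PH, against 4.01 to 4.06 on the other arrays. Of the 9 low genes, 8 read lower on array 2 than on array 1 of the 12-week livers. The part of this shift in their differences was not tested. The median of 10 hepatocyte markers lay between 13.26 and 13.51 on every array, near the top of the scale, as the label of the tissue says.

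Livers of 2-week-old rats had lower means than 12-week livers for all 44 genes, though most of the differences did not pass the test. In this comparison 5 genes were called lower at 2 weeks, by 2.27- to 4.57-fold: Psmb8, Cd74, Tap1, RT1-CE7 and RT1-Ba. These are 5 of 44 genes, where 0.938% of all genes tested were called lower (limma, Benjamini-Hochberg adjusted p under 0.05 over all genes). The number of genes called higher was 0, where 1.29% of all genes were. An unadjusted p under 0.05 was found for 16 of the 44, against 11.1% of all genes, and all 16 read lower at 2 weeks. The difference was below 0 for 44 of 44 genes, against 51.6% of all genes, and for 28 of them both arrays at 2 weeks lay below both at 12 weeks, against 16.8% of all genes. The median difference of the 44 genes was -0.56, and that of all genes was -0.01. The count below 0 was 44 under both other scalings of the arrays as well. It was 39 without array 1 or without array 2 of the 12-week livers, 39 without array 1 at 2 weeks and 43 without array 2 at 2 weeks. The genes share the same arrays, and RT1 probe sets can take up each other's signal, so these counts do not rest on independent genes. In whole tissue, fewer cells of a type and less RNA per cell cannot be told apart.

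**Figure D1:**
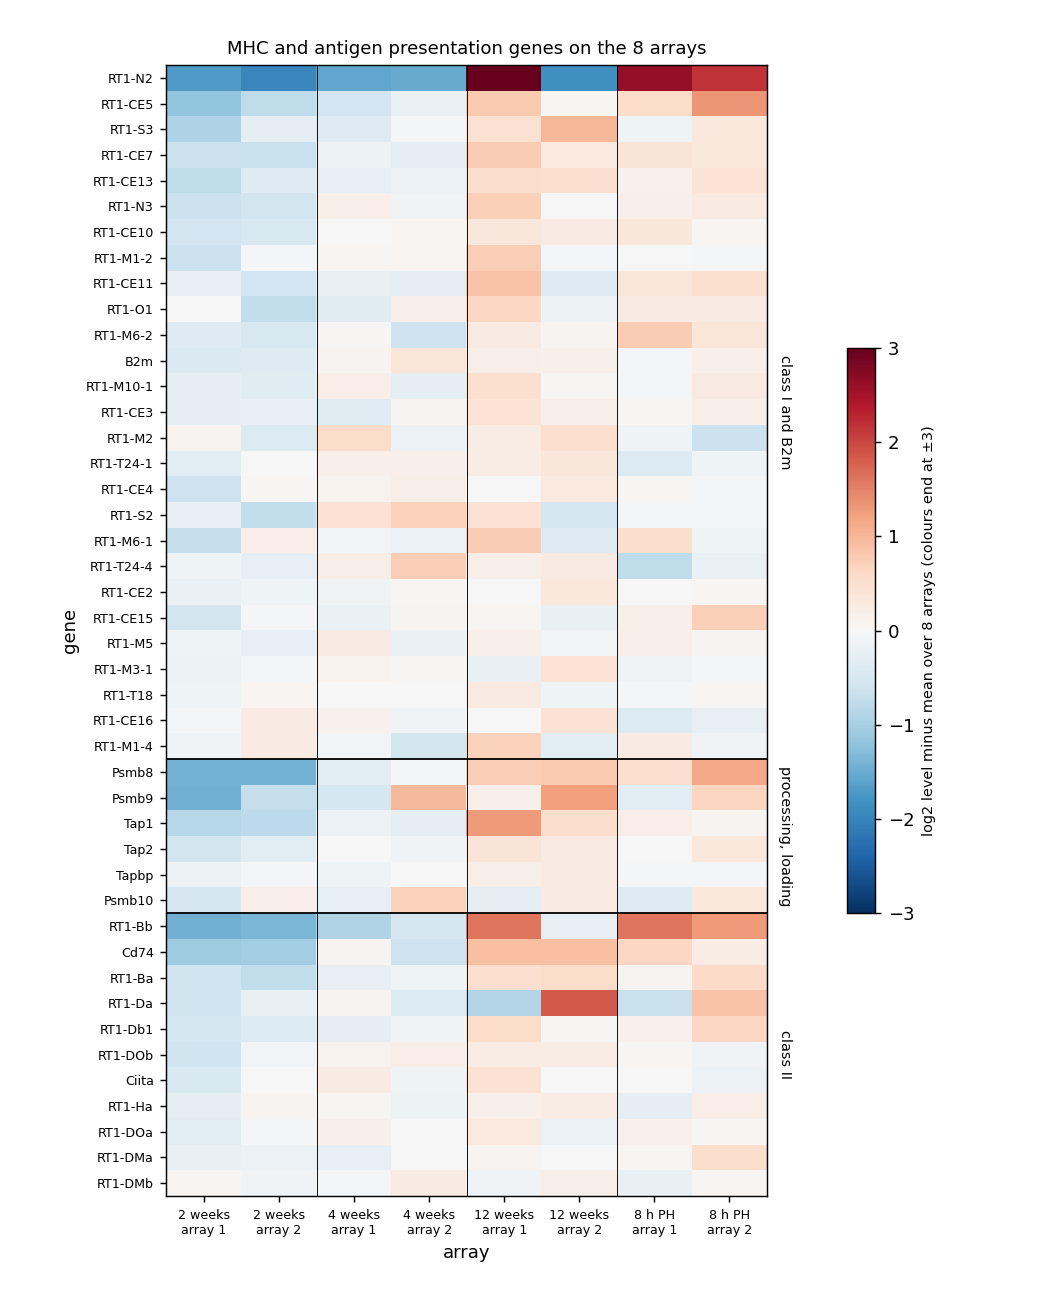
Heat map of the 44 genes (one line each, ordered by role and then by the difference of 2-week from 12-week livers) on the 8 arrays; colour is the log2 level minus that gene's mean over the arrays. The 2-week arrays are mostly blue, below the gene's mean, and RT1-N2 and RT1-Da differ most between the arrays of the 12-week livers.

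Among the class I genes, B2m, the light chain shared by class I molecules, read 12.23 and 12.28 at 2 weeks, 12.75 and 13.03 at 4 weeks, 12.84 and 12.82 at 12 weeks, and 12.63 and 12.82 after PH. Both 2-week arrays lay below all others, yet the difference from 12 weeks did not pass the test at -0.58 ± 0.21 (SE; adjusted p = 0.3366). RT1-CE7, a class I gene of the C/E region, read 7.72 and 7.69 at 2 weeks, 8.21 and 8.07 at 4 weeks, 9.12 and 8.65 at 12 weeks, and 8.75 and 8.67 after PH. Its groups at 2, 4 and 12 weeks did not overlap, and it read lower at 2 than at 12 weeks by 1.18 ± 0.23 (adjusted p = 0.04203). A further probe set of RT1-CE7 read 6.43 and 6.58 at 2 weeks against 7.01 and 6.99 at 12 weeks, a smaller gap in the same direction.

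RT1-CE13 and RT1-S3, both class I genes, came close to the threshold. RT1-CE13 read 8.58 and 8.94 at 2 weeks, 9.09 and 9.15 at 4 weeks, 9.86 and 9.82 at 12 weeks, and 9.47 and 9.74 after PH, a difference of -1.08 ± 0.23 between 2 and 12 weeks (adjusted p = 0.05432). RT1-S3 read 8.44 and 9.07 at 2 weeks, 8.99 and 9.31 at 4 weeks, 9.82 and 10.35 at 12 weeks, and 9.24 and 9.68 after PH, a difference of -1.33 ± 0.31 (adjusted p = 0.08759). Both had their highest arrays at 12 weeks and did not overlap with 2 weeks. RT1-CE5 read 5.83 and 6.26 at 2 weeks, 6.44 and 6.81 at 4 weeks, 7.80 and 7.05 at 12 weeks, and 7.58 and 8.34 after PH. Its 2-week arrays were the lowest of all, at -1.38 ± 0.36 against 12 weeks (adjusted p = 0.1213). Of the 27 class I genes, B2m included, 1 was called lower at 2 weeks, and their median difference was -0.54.

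Differences among the genes of peptide processing and loading ran from -2.19 to -0.16. Psmb8, which encodes a catalytic subunit of the immunoproteasome, read 7.21 on both arrays at 2 weeks, 8.32 and 8.61 at 4 weeks, 9.38 and 9.43 at 12 weeks, and 9.14 and 9.77 after PH. The 3 ages stood apart without overlap, and the operated livers lay around the 12-week ones. Psmb8 read lower at 2 than at 12 weeks by 2.19 ± 0.26, a 4.57-fold difference (adjusted p = 0.00589). Tap1, the first chain of the peptide transporter, read 7.13 and 7.20 at 2 weeks, 7.80 and 7.70 at 4 weeks, 9.26 and 8.52 at 12 weeks, and 8.17 and 8.08 after PH. It fell by 1.72 ± 0.27, or 3.30-fold (adjusted p = 0.01706), and its operated livers lay between the 4-week and the 12-week ones.

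The partner chain Tap2 read 6.93 and 7.17 at 2 weeks, 7.47 and 7.39 at 4 weeks, 7.88 and 7.75 at 12 weeks, and 7.50 and 7.80 after PH, a difference of -0.76 ± 0.22 between 2 and 12 weeks (adjusted p = 0.1764). Psmb9, a second immunoproteasome subunit, read 6.46 and 7.17 at 2 weeks, 7.37 and 8.86 at 4 weeks, 8.04 and 9.12 at 12 weeks, and 7.57 and 8.53 after PH. Its difference of -1.77 ± 0.58 was near that of Psmb8, but array 2 read above array 1 by 0.71 to 1.49 in each of the 4 groups, and it did not pass (adjusted p = 0.2395). Psmb10, the remaining inducible subunit, read 7.08 and 7.74 at 2 weeks, 7.33 and 8.26 at 4 weeks, 7.30 and 7.82 at 12 weeks, and 7.20 and 7.88 after PH. All of its groups overlapped, and the spread within a group was larger than the difference of -0.16 ± 0.40. Tapbp, which bridges the transporter and the class I chain, read 8.80 and 8.89 at 2 weeks, 8.82 and 8.96 at 4 weeks, 9.13 and 9.22 at 12 weeks, and 8.88 on both arrays after PH. Its 12-week arrays were the highest, by a small amount (-0.33 ± 0.20 for 2 minus 12 weeks, adjusted p = 0.6614). Of the 6 genes of this group, 2 were called lower at 2 weeks, and the median difference was -1.24.

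Among the class II genes, Cd74, the invariant chain, read 9.22 on both arrays at 2 weeks, 10.37 and 9.65 at 4 weeks, 11.18 and 11.17 at 12 weeks, and 10.90 and 10.49 after PH. It read lower at 2 than at 12 weeks by 1.96 ± 0.28, or 3.88-fold (adjusted p = 0.01182). No array of one age overlapped with another age. RT1-Ba, the alpha chain of the class II B molecule, read 6.55 and 6.41 at 2 weeks, 6.91 and 7.01 at 4 weeks, 7.64 and 7.70 at 12 weeks, and 7.22 and 7.73 after PH. It showed the same separation of the ages and read lower at 2 than at 12 weeks by 1.19 ± 0.24 (adjusted p = 0.04602). Its beta chain RT1-Bb read 6.21 and 6.28 at 2 weeks, 6.74 and 7.14 at 4 weeks, 9.25 and 7.41 at 12 weeks, and 9.26 and 8.92 after PH. The 12-week arrays disagreed by 1.85, and the difference of -2.09 ± 0.51 did not pass (adjusted p = 0.1002).

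Ciita, the coactivator on which class II transcription depends, read 5.32 and 5.80 at 2 weeks, 6.02 and 5.65 at 4 weeks, 6.21 and 5.79 at 12 weeks, and 5.79 and 5.61 after PH. These groups overlapped, and the levels lay around the level set by the receptor genes. RT1-DMb, the beta chain of the DM molecule that exchanges peptides on class II, had the smallest difference of the 44 genes between 2 and 12 weeks, at -0.06. Of the 11 class II genes, 2 were called lower at 2 weeks, with a median difference of -0.56.

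**Figure D2:**
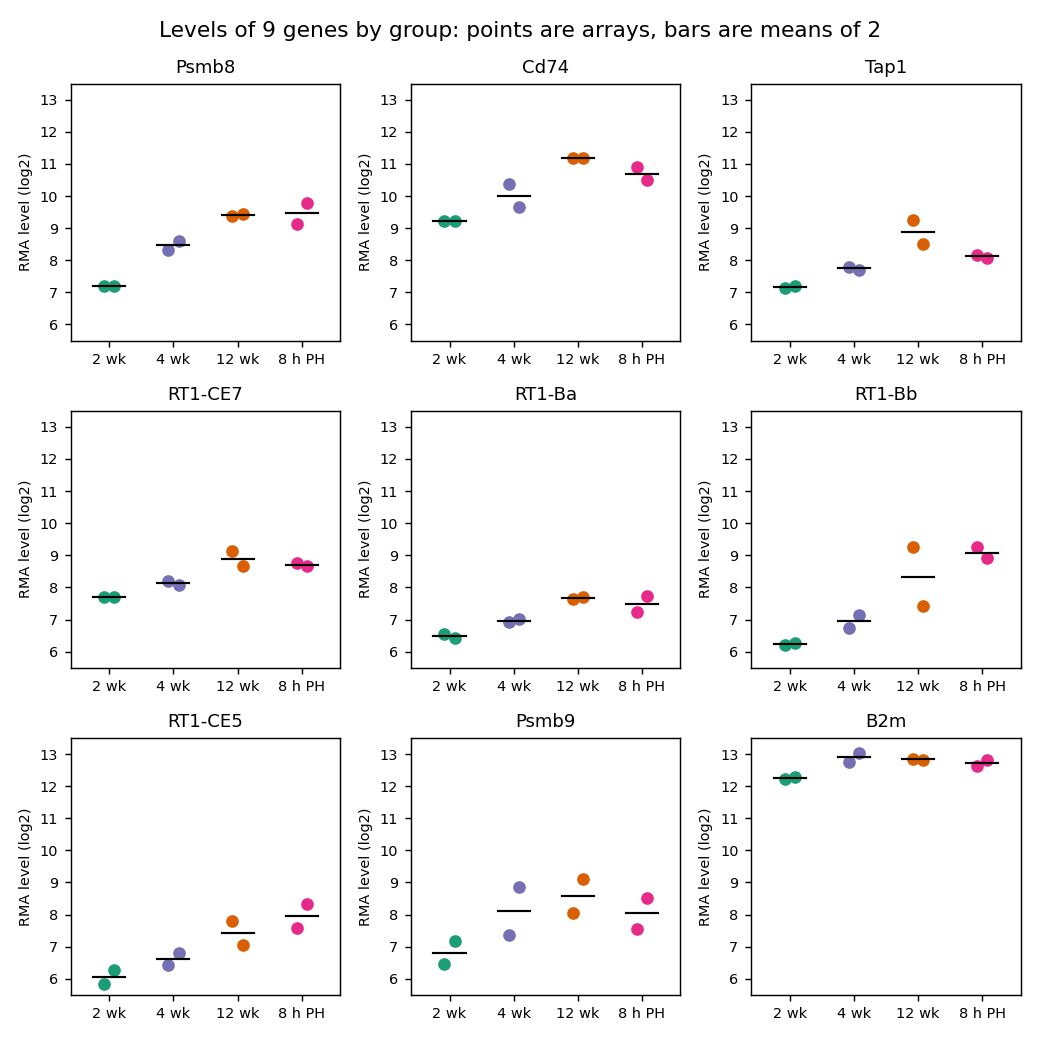
Log2 RMA level of 9 genes (points are single arrays, bars the mean of 2) at 2, 4 and 12 weeks and 8 h after PH. The arrays of Psmb8, Cd74, Tap1, RT1-CE7, RT1-Ba, RT1-Bb and RT1-CE5 do not overlap between the 3 ages. Those of Psmb9 and B2m overlap between 4 and 12 weeks, and the 12-week arrays of RT1-Bb lie far apart.

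Calls were lost when single arrays were left out, also arrays of the other groups, and most were lost without a 2-week array. A fit without a 2-week array leaves 1 array in that group. Without array 1 at 2 weeks none of the 5 passed, with Psmb8 at an adjusted p of 0.05145, Cd74 at 0.0917, Tap1 at 0.1199, RT1-Ba at 0.1928 and RT1-CE7 at 0.2175, although their differences stayed between -2.19 and -1.20. Without array 2 at 2 weeks only Psmb8 passed (adjusted p = 0.03623). RT1-Ba did not pass in any of the 8 fits that left out an array (adjusted p from 0.06164 to 0.193), and RT1-CE7 passed only without array 2 of the 12-week livers (adjusted p = 0.02993). That fit called 7 genes, with RT1-Bb, RT1-N2 and RT1-N3 added to Psmb8, Cd74, Tap1 and RT1-CE7. RT1-Ba and RT1-CE7 also missed with all probe sets tested (0.08125 and 0.07598), and with only the arrays of both groups Tap1 missed too (0.08797).

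Promoters of 39 of the 44 genes were found in a RefSeq table of the build GRCr8, and 36 of the 39 lie on chromosome 20. Each window runs from 250 bases before the annotated start to 20 bases after it. Windows are shown as examples of each motif, from genes called in a comparison or close to it that hold one, with the motif in capitals. Cd74 was called as well, and its window holds none of the 3 motifs. The first pair carries the core of an interferon-stimulated response element (GAAANNGAAA, searched on both strands). Psmb8 lies at chr20:4657012-4657281 on the minus strand, with the motif from position -4 to 6, and Tap1 at chr20:4668524-4668793 on the minus strand, with the motif from -121 to -112.
Psmb8: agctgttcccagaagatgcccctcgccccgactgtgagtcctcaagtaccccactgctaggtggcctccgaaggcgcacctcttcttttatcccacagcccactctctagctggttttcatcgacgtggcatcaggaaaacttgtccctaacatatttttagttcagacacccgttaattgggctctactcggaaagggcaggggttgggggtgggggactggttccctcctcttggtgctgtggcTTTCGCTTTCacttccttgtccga
Tap1: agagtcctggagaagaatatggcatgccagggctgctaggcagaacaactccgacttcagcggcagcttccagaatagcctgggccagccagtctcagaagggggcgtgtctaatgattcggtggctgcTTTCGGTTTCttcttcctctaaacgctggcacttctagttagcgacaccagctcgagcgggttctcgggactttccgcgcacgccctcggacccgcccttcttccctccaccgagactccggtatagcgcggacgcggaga
The next pair, both class II chains, carries the Y box (CTGATTGG, both strands), a site known from class II promoters. RT1-Ba lies at chr20:4576807-4577076 on the plus strand, with the motif from -46 to -39, and RT1-Bb at chr20:4604099-4604368 on the minus strand, with the motif from -64 to -57.
RT1-Ba: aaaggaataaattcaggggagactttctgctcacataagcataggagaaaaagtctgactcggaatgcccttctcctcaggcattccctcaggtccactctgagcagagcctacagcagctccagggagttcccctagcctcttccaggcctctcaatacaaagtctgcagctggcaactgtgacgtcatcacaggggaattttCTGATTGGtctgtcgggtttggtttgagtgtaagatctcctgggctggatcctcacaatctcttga
RT1-Bb: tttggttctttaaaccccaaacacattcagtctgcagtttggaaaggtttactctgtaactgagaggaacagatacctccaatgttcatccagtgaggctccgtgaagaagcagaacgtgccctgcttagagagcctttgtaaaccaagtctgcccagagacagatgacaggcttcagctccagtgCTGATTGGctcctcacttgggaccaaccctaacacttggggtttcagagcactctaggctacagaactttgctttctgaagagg
The class I gene RT1-CE13, at chr20:3322780-3323049 on the minus strand, holds GGGGATTCC, a kappa B core of the class I enhancer (both strands), from -125 to -117. RT1-CE5, at chr20:3484071-3484340 on the minus strand, holds the Y box in the reverse direction from -48 to -41.
RT1-CE13: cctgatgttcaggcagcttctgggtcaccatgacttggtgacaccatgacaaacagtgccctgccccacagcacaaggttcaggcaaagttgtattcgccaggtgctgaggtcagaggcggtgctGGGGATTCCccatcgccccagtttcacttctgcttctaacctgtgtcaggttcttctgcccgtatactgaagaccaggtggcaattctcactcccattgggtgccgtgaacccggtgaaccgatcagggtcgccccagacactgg
RT1-CE5: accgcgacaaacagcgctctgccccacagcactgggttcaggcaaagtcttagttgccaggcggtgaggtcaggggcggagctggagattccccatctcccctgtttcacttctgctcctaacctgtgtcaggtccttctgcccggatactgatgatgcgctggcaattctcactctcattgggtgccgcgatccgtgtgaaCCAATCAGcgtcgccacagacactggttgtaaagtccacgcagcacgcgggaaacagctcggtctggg

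The interferon core was in 9 of the 39 windows, against 3.62% of all 33469 promoter windows. It was in 5 of the 6 processing and loading genes (Psmb8, Psmb10, Tap1, Tap2 and Tapbp), 4 of 24 class I genes (B2m, RT1-N3, RT1-S2 and RT1-S3) and 0 of 9 class II genes. Psmb9 had no match of its own, and its window overlaps that of Tap1 by 44 bases. The Y box was in 14 windows, against 3.3% of all, with 6 of the 9 class II genes, 8 of the 24 class I genes and 0 of the 6 processing genes. The kappa B core was in 6 windows, against 0.257% of all, and all 6 were class I genes of the C/E region. Many RT1 genes are near-identical copies, so their windows are not independent and a shared sequence can be counted more than once. Genes with the interferon core include called ones (Psmb8 and Tap1) and ones not called in any comparison, such as Psmb10 and Tapbp. Whether the motif goes with the calls was not tested. A match describes letters in the window and is not evidence of binding, and a window without a match says only that these letters are not in it.

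Other genes of the pathways were read from lists of partners. Of 19 class I partners measured (of 20 listed, among them Calr, Canx, Pdia3, Erap1 and constitutive proteasome subunits), 0 passed the test in either direction between 2 and 12 weeks, and 15 were below 0. Of 18 class II partners (such as the cathepsins and the factors that bind class II promoters), 0 passed and 11 were below 0. Rfx5, a factor that binds class II promoters with Ciita, differed by -0.34 ± 0.32 (adjusted p = 0.8017). Of 27 interferon signalling genes and targets measured (of 30 listed), 4 were called lower and 0 higher at 2 than at 12 weeks.

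The 4 were Mx2, Mx1, Ifit3 and Irf9. Mx2, an antiviral GTPase induced by type I interferon, read 7.69 and 7.58 at 2 weeks, 8.56 and 9.41 at 4 weeks, 12.04 and 10.46 at 12 weeks, and 10.64 and 10.63 after PH. It fell by 3.61 ± 0.48 between 12 and 2 weeks (adjusted p = 0.008819). Mx1 fell by 2.68 ± 0.39 (adjusted p = 0.01226), Ifit3 fell by 2.08 ± 0.32 (adjusted p = 0.0168) and Irf9, part of the interferon-activated transcription complex, fell by 1.44 ± 0.21 (adjusted p = 0.0136). Without array 1 at 2 weeks none of the 4 passed, with adjusted p from 0.07043 to 0.1124, and without array 2 at 2 weeks only Irf9 did (0.04906). Ifit3 also missed without array 1 of the 12-week livers (0.06645), and Irf9 with only the arrays of both groups (0.08659). Irf1 and Irf8, other regulators of MHC genes, differed by -0.50 ± 0.24 (adjusted p = 0.5005) and -0.42 ± 0.30 (adjusted p = 0.7113).

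Cell markers moved beside these genes between 2 and 12 weeks. Of 14 T and NK cell markers, 13 were below 0 at 2 weeks, with a median difference of -0.72 and 0 passing, and their median level per array was 5.39 and 5.48 at 2 weeks, 5.69 and 5.81 at 4 weeks, 5.81 and 6.66 at 12 weeks, and 5.68 and 5.76 after PH. Of 7 B and plasma cell markers measured, 6 were below 0 (median level 6.03 and 6.04 at 2 weeks, 6.14 and 6.57 at 12 weeks). Dendritic markers had a median difference of -0.02 and macrophage and Kupffer markers one of 0.20, with per-array medians of the latter between 9.18 and 9.77. All 10 neutrophil, 10 stellate and fibroblast and 8 erythroid markers were above 0 at 2 weeks, with median differences of 1.27, 1.51 and 1.89. Of these, 3 stellate and 3 erythroid markers were called higher at 2 than at 12 weeks. Array 1 at 2 weeks had the highest medians of the neutrophil (6.98, against 5.73 on array 2) and erythroid markers (7.49 against 6.36). The 10 hepatocyte markers had a median difference of 0.03. After PH, all 14 T and NK cell markers and all 7 B and plasma cell markers were also below 12 weeks, with 0 passing. Their median differences were -0.60 and -0.41, beside -0.15 for the 44 genes. The part of these markers in the MHC result was not tested.

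At 4 weeks most of the genes had means between those at 2 and 12 weeks. The comparison of 4 with 12 weeks called 0 of 44 genes with limma, where 0.110% of all genes were called, and 8 of 44 had an unadjusted p under 0.05, against 4.47% of all genes. The differences were below 0 for 37 genes, with both arrays lower for 19 genes, against 11.3% of all, and the median was -0.30. The largest of those 8 were RT1-Bb at -1.39 ± 0.51, Cd74 at -1.17 ± 0.28, Tap1 at -1.13 ± 0.27, Psmb8 at -0.94 ± 0.26 and RT1-S3 at -0.94 ± 0.31. Without array 1 of the 12-week livers the count below 0 was 30, and without array 2 it was 34.

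Between 2 and 4 weeks 0 of 44 genes were called with limma, where 0.448% of all genes were, and 5 had an unadjusted p under 0.05, against 7.24% of all genes. The differences were below 0 for 42 genes, and both 2-week arrays were the lower ones for 24 genes, against 20.1% of all genes. The median difference was -0.31. Psmb8 differed by -1.25 ± 0.26, Cd74 by -0.79 ± 0.28 and B2m by -0.64 ± 0.21. RT1-S2 read 5.44 and 4.94 at 2 weeks, 6.12 and 6.36 at 4 weeks, 6.11 and 5.16 at 12 weeks, and 5.65 on both arrays after PH, so its 4-week arrays were the highest. RT1-T24-4 read 7.54 and 7.42 at 2 weeks, 7.84 and 8.40 at 4 weeks, 7.84 and 7.95 at 12 weeks, and 6.90 and 7.46 after PH, with both 4-week arrays above the 2-week ones. A further probe set of RT1-T24-4 did not show this, with 7.09 and 7.42 at 2 weeks and 7.14 and 7.28 at 4 weeks. The comparisons among the ages share arrays, so their counts are not independent of each other.

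Across the 4 groups, the 2-week livers had the lowest mean for 38 of 44 genes, as they did for 30.1% of all genes. The highest mean was at 12 weeks for 26 genes (23.6% of all genes), after PH for 13 and at 4 weeks for 5. The most frequent order, from low to high, was 2 weeks, 4 weeks, PH and 12 weeks, in 15 genes, and the next was 2 weeks, 4 weeks, 12 weeks and PH, in 11.

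Livers 8 h after PH differed from 12-week livers by a median of -0.15 over the 44 genes, with 30 genes below 0. The comparison called 0 of 44 genes with limma, where 0.0345% of all genes were called. An unadjusted p under 0.05 was found for 4 genes, as it was for 870 of all 14506 genes. They were Tap1 at -0.76 ± 0.27 (adjusted p = 0.6673), RT1-M2 at -0.74 ± 0.32, RT1-T24-4 at -0.71 ± 0.28 and RT1-T24-1 at -0.55 ± 0.22. RT1-M2, a class I gene of the M region, read 7.28 and 6.78 after PH, 7.49 and 7.01 at 2 weeks, 7.96 and 7.24 at 4 weeks, and 7.63 and 7.92 at 12 weeks. The further probe set of RT1-T24-4 overlapped between these groups, at 7.32 and 8.00 after PH and 7.73 and 7.23 at 12 weeks. The operated arrays of RT1-M2 lay below the 12-week ones and overlapped with those at 2 weeks.

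Both arrays after PH were lower for 10 genes, against 15.2% of all genes, and both higher for 2 genes (RT1-CE15 and RT1-M6-2), against 13.7%. The number of genes below 0 was 25 without array 1 and 33 without array 2 of the 12-week livers. A p that misses the threshold does not show that the groups are alike.

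**Figure D3:**
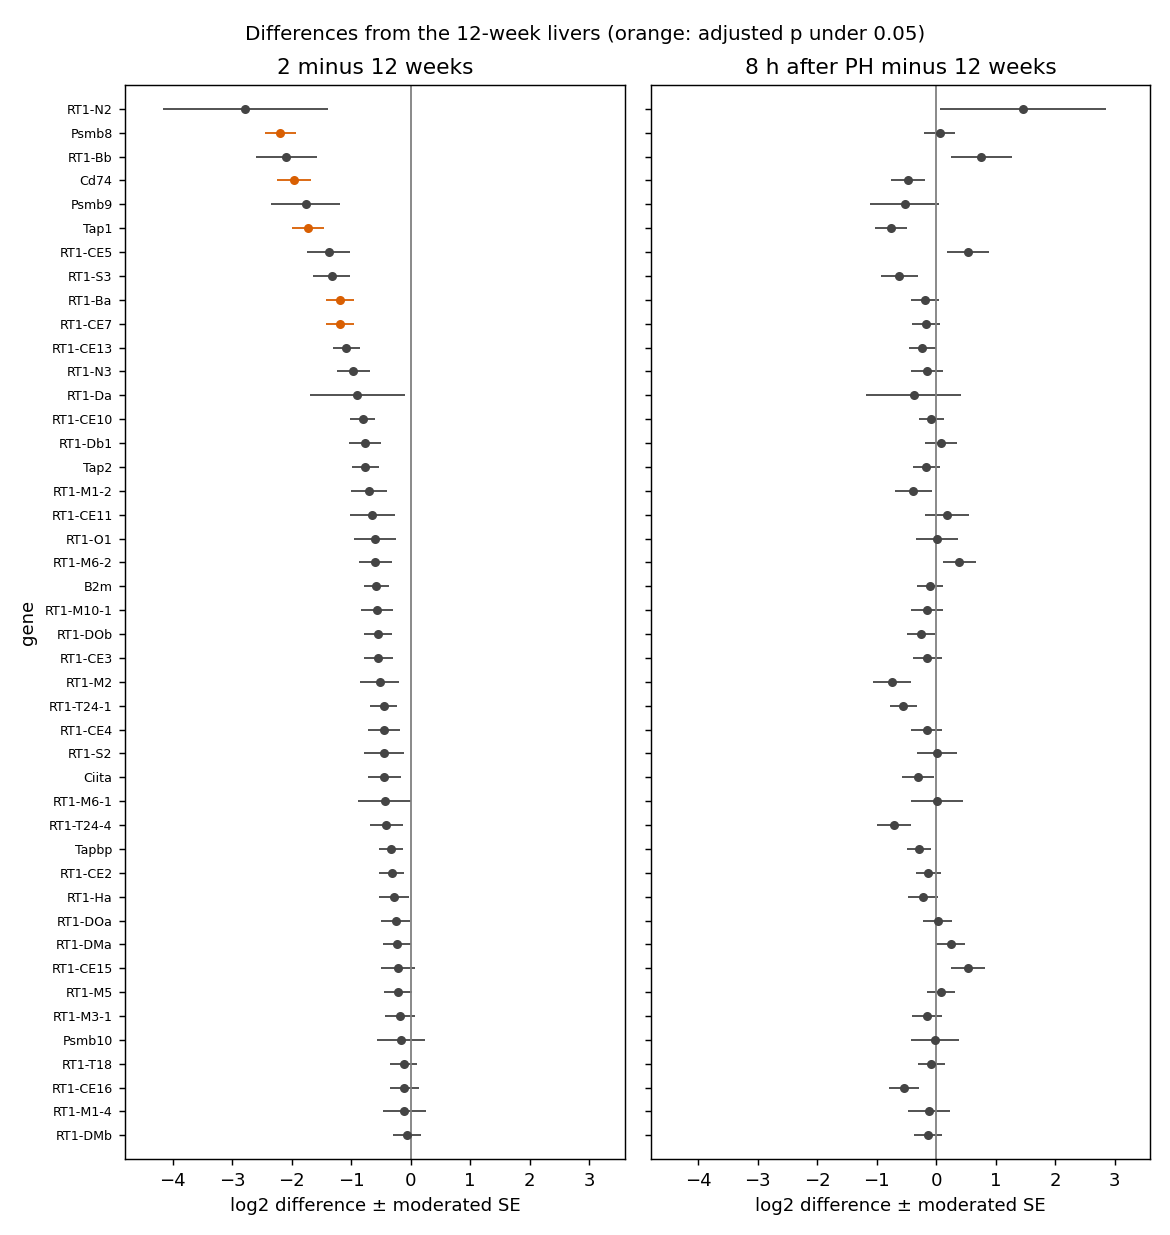
Log2 difference of 2-week livers (left) and of livers 8 h after PH (right) from the 12-week livers for the 44 genes, with the moderated standard error; both panels share the 12-week arrays. On the left all 44 points lie below 0 and 5 have an adjusted p under 0.05 (orange), and on the right 30 lie below 0 and none passed.

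Against the 2-week livers the operated livers read higher, in a comparison that was added after the data had been seen and that uses the 2-week arrays again. Here 4 of 44 genes were called higher after PH, where 0.793% of all genes were. They were Psmb8 by 2.25 ± 0.26 (adjusted p = 0.00497), RT1-Bb by 2.84 ± 0.51 (adjusted p = 0.03077), RT1-CE5 by 1.91 ± 0.36 (adjusted p = 0.03625) and Cd74 by 1.48 ± 0.28 (adjusted p = 0.03877). For 27 genes both operated arrays were higher, against 24.6% of all genes, and the median difference was 0.46. Mx2 read higher as well, by 3.00 ± 0.48 (adjusted p = 0.02047), as the one gene of the interferon list that passed. Without array 1 at 2 weeks none of the 4 genes passed (Psmb8 at an adjusted p of 0.05139). Without array 2 at 2 weeks, or either operated array, only Psmb8 did, and Mx2 missed in each of these 4 fits (adjusted p from 0.09252 to 0.1308) and with all probe sets tested (0.05275). Without either 4-week array RT1-Bb and RT1-CE5 missed, at 0.06418 and 0.06805. Leaving out either 12-week array gives the same fit here, since the 1 array left adds nothing to the spread. The 12-week gaps of RT1-CE7, RT1-N2 and Tap1 then no longer count, while their differences stay at 1.01, 4.24 and 0.96. With only the PH and 2-week arrays fitted in limma, RT1-N2 passed (adjusted p = 0.00107), while RT1-CE7 (0.05681) and Tap1 (0.06842) did not.

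Against the 4-week livers, also compared after the data had been seen, 0 of 44 genes were called with limma, where 0.303% of all genes were, and 8 had an unadjusted p under 0.05, against 10.1% of all genes. Both operated arrays were higher for 16 genes (21.7% of all genes) and lower for 8 (22.5%), and the median difference was 0.18. RT1-Bb differed by 2.15 ± 0.51 (adjusted p = 0.1736), RT1-CE5 by 1.33 ± 0.36, Psmb8 by 0.99 ± 0.26 and RT1-T24-4 by -0.94 ± 0.28. The further probe set of RT1-T24-4 went the other way, at 7.32 and 8.00 after PH against 7.14 and 7.28 at 4 weeks. Leaving out either 12-week array gives the same fit for this comparison, since the 1 array left adds nothing to the spread. The wide 12-week gaps of RT1-Bb and RT1-N2 then no longer count, while their differences stay at 2.15 and 3.93. Both passed with only the PH and 4-week arrays fitted in limma (adjusted p = 0.0272 and 0.006265), though not in the main fit.

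The arrays of a group agreed on most of these genes, with the widest gaps at 12 weeks. Arrays differed at least 2-fold for 1 of 44 genes after PH (2.98% of all genes), 0 at 2 weeks (3.31%), 1 at 4 weeks (4.27%) and 6 at 12 weeks (12.7%). The median gap of the 44 genes at 12 weeks was 0.41, the same as that of all genes. The correlation of the arrays over all genes was 0.9517 at 12 weeks, against 0.9746 to 0.9798 in the other groups.

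RT1-N2, a class I gene of the N region, had a gap of 47.4-fold between the arrays of the 12-week livers, the second widest of all 14506 genes. It read 6.15 and 5.90 at 2 weeks, 6.31 and 6.35 at 4 weeks, 11.59 and 6.02 at 12 weeks, and 10.50 and 10.02 after PH. Array 1 at 12 weeks and both operated arrays were thus high, and the other 5 arrays were low. The comparison of operated with 12-week livers therefore turned on which 12-week array was used: 1.46 ± 1.39 with both, 4.24 without array 1 (adjusted p = 0.003437) and -1.32 without array 2. For 2 minus 12 weeks it was -2.78 ± 1.39 with both (adjusted p = 0.543), 0.01 without array 1 and -5.56 without array 2 (adjusted p = 5.484e-04). For 4 minus 12 weeks the values were -2.47 ± 1.39, 0.31 and -5.26 (adjusted p without array 2 = 0.001486).

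RT1-Bb followed the same arrays in part, with 9.25 on array 1 and 7.41 on array 2 at 12 weeks. Its difference between 2 and 12 weeks was -1.16 without array 1 and -3.01 without array 2 (adjusted p = 0.004745), and that between 4 and 12 weeks -0.47 and -2.31 (adjusted p without array 2 = 0.04896). RT1-CE11 read 7.39 and 6.15 at 12 weeks and had a mean of 6.94 ± 0.09 (SD, n = 2) after PH, against 5.96 to 6.31 at 2 and 4 weeks. RT1-Da, the class II alpha chain of the D molecule, went the other way, with 8.22 and 10.92 at 12 weeks and 8.43 and 9.95 after PH, against 8.48 and 8.86 at 2 weeks and 9.16 and 8.69 at 4 weeks. Its gap at 12 weeks ranked 35 of all genes. Its partner RT1-Db1 read 6.82 and 6.29 at 12 weeks and did not share that gap.

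The other genes with a 2-fold gap at 12 weeks were RT1-M6-1 and Psmb9. RT1-M6-1, one of the low genes, read 4.65 and 5.56 at 2 weeks, 5.27 and 5.18 at 4 weeks, 6.11 and 4.98 at 12 weeks, and 5.89 and 5.23 after PH. RT1-O1, with the second widest gap of the 44 genes at 2 weeks, read 4.81 and 4.09 there, 4.44 and 4.96 at 4 weeks, 5.44 and 4.67 at 12 weeks, and 5.06 and 5.05 after PH. Both sit near the level of the receptor genes, where a signal and the background are hard to separate.

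Array 2 read above array 1 in every group for 7 of the 44 genes, against 12.4% of all genes, and below it in every group for 3, against 12.9%. The 7 were Psmb8, Psmb9, Psmb10, RT1-CE2, RT1-S3, RT1-T24-1 and Tapbp, and the 3 were RT1-CE7, RT1-M5 and RT1-M6-2. The gap was widest in Psmb9 and in Psmb10, where it ran from 0.52 to 0.93, and all 3 immunoproteasome subunits were among the 7. Of 9 other proteasome genes and activators on the partner list, 6 (Psma1, Psma5, Psmb5, Psmb7, Psmc1 and Psme1) also read higher on array 2 in every group, by 0.64 to 1.27 in Psmb5. In Psmb8 it was small at 2 weeks (0.0013) and 0.63 after PH.

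**Figure D4:**
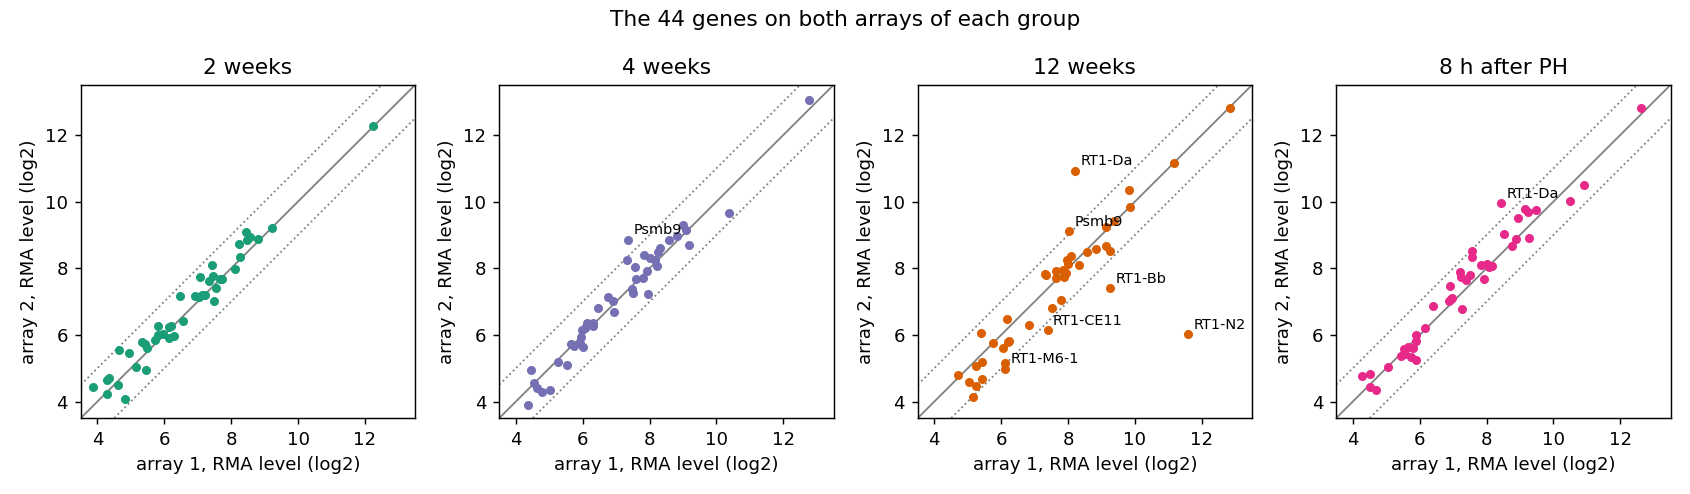
Log2 RMA level of the 44 genes on array 1 (x axis) and array 2 (y axis) of each group; the solid line marks equal levels and the dotted lines a 2-fold difference. The 2-week arrays hold no gene outside the dotted lines and the 12-week arrays hold 6, with RT1-N2 at 11.59 and 6.02.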

How the data were processed

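Liver RNA in 4 groups of 2 arrays was hybridised to the Rat Gene ST platform of Affymetrix. The deposited values are log2 levels, made by the authors with RMA. The software was Affymetrix Expression Console, as the submitters' processing notes list it; its version and any filter were not given in the sources used here. No detection calls, scan dates or batches were used, and the number of arrays limits the precision. Probe sets were named through the platform annotation: of 29214, 15310 had 1 symbol, 323 several and 13581 were unlisted. Symbols were checked against the RefSeq table of GRCr8 (15279 matched), and 1 probe set per gene was kept (14506 genes).

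The 4 groups were fitted in 1 model with limma 3.58.1 in R 4.3.3 (lmFit, eBayes), with Benjamini-Hochberg adjustment over all genes and a threshold of 0.05; p-values are two-sided. The script was tested on simulated data. The genes, lists and tests were chosen with earlier results of these data known, and both comparisons of PH with 2 and 4 weeks were added after the data had been seen. Genes given with values per array are those added by name, RT1 genes called, the 3 RT1 genes with the largest difference in a comparison, the 2 genes with the widest gap in a group, and the 3 RT1 genes with the highest and lowest means; RT1-CE11, RT1-Db1 and RT1-DMb were added after their values were seen. Alternatives were other scalings, filters, probe sets, samples, variance models, the replicate number as a block and leaving out each array.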

Additional observations from a re-analysis of the deposited data

How the results depend on the processing

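No called difference changed direction under the alternatives run, which were other scalings, a filter at the median gene level (27 of the 44 genes kept), all probe sets, only the 2 groups compared, a trended and robust variance model, the replicate number as a block and leaving out each array. Leaving out an array leaves 1 in its group, which is then assumed to vary like the other groups. Between 2 and 12 weeks 5 genes were called, 3 with all probe sets, 2 with only those groups, 3 with the trended model and 0 to 7 without an array. For PH against 2 weeks 4 were called, 1 with all probe sets and 0 to 7 without an array. For PH against 4 weeks 0 were called, 2 with only those groups and 0 to 2 without an array; for 4 against 12 weeks 0 to 2 without an array, and for PH against 12 weeks 0 to 1. Under the filter the median difference is that of the 27 genes kept, and otherwise that of all 44. Between 2 and 12 weeks it was -0.81 under the filter and -0.68 to -0.48 without an array. Between 4 and 12 weeks it was -0.34 with median centring, -0.38 under the filter and -0.34 to -0.20 without an array. Between 2 and 4 weeks it ran from -0.45 to -0.20 without an array, and for PH against 2 weeks it was 0.71 under the filter and 0.37 to 0.58 without an array. With median centring, 2 genes instead of 1 had a 2-fold gap at 4 weeks. The cause of these shifts was not tested, apart from the filter, which tests fewer genes.

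Deviations of arrays with the same number correlated at 0.02 (2 and 12 weeks) to 0.57 (PH and 12 weeks), above 0 in 6 of 6 pairs of groups and above 0.1 in 5. This is a hint from the data that arrays of a number share an effect; the labels give no pairing, so the block was kept as an alternative. With the replicate block 9 of the 44 genes were called between 2 and 12 weeks, with Psmb9 (adjusted p = 0.00589), RT1-S3 (0.0105), RT1-CE13 (0.02972) and RT1-Bb (0.04459) added, and 6 for PH against 2 weeks, with Psmb9 (0.02946) and RT1-CE7 (0.04332) added. Over all genes, the block called 515 instead of 323 between 2 and 12 weeks, 500 instead of 313 for PH against 2 weeks, 41 instead of 5 for PH against 12 weeks, 30 instead of 16 for 4 against 12 weeks, 128 instead of 65 for 2 against 4 weeks and 131 instead of 44 for PH against 4 weeks. Over all genes with only the groups compared, the counts were 140, 354, 2, 7, 56 and 109 in that order. For PH against 12 weeks median centring called 2, the 75th percentile scaling 11 and all probe sets 3; for PH against 4 weeks they called 29, 70 and 22. Without an array the counts over all genes ran from 101 to 382 (2 against 12 weeks), 72 to 421 (PH against 2 weeks), 1 to 11 (PH against 12 weeks), 5 to 24 (4 against 12 weeks), 26 to 104 (2 against 4 weeks) and 6 to 129 (PH against 4 weeks). Of the values of single genes under these alternatives, 2135 stayed on their side of the threshold, 25 came to pass it and 48 no longer passed it. The 2135 include values that changed direction without passing in either fit, such as RT1-N2 in comparisons with the 12-week livers. The 48 all lie with the 5 genes called between 2 and 12 weeks and the 4 called for PH against 2 weeks. Most of the 2135 were values that had not passed in the main fit either. Genes near the level of the receptor genes are limited by background.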
